A study of Mus musculus with 5 samples.

Results

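Lung mesenchyme is held in its identity by a small group of transcription factors, and 10 of their genes are described here in mouse lung fibroblasts after deletion of Igf1r, the receptor for insulin-like growth factors. The genes were taken by their symbols: the T-box factors Tbx2, Tbx3, Tbx4 and Tbx5, the forkhead factors Foxf1 and Foxf2, the basic helix-loop-helix (bHLH) factors Tcf21 and Twist1, and the homeobox factors Meox2 and Prrx1. These are 10 of the 23478 genes in the count table, and all 10 had enough reads to be tested. The RNA came from GFP-sorted lung cells at P6, in 5 libraries. All pups carried Gli1creER and the Rosa-EGFP reporter and received 100 µg of tamoxifen on P0 and on P1. The 2 control libraries came from Igf1r Flox/Wildtype pups and the 3 Igf1r-deleted libraries, labelled Mutant, from Igf1r Flox/Flox pups, so that the control cells could lose a single copy of Igf1r as well. GFP marks cells in which the Cre driven by Gli1 had been active, and their progeny, and the mice were of mixed background and both sexes. The labels do not say whether each library is a separate animal or a pool, so the p-values below measure the spread between these libraries, which may be technical in part.

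T-box, forkhead, bHLH and homeobox proteins bind DNA through domains that differ between the families, and each family has members that are restricted to mesoderm. In the embryonic lung, Tbx4 and Tbx5 act in the mesenchyme upstream of Fgf10 and branching, Tbx2 and Tbx3 keep the mesenchyme dividing, Foxf1 responds to hedgehog signals from the epithelium, and Tcf21 is needed for the mesenchyme to support airway and alveolar growth. After birth, several of these genes are still transcribed in fibroblasts, pericytes and smooth muscle of the alveolar wall.

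Among the 10 factors, Tcf21 was lower in the Igf1r-deleted libraries, at 0.675 times the control level, and Meox2 was higher, at 1.34 times. Tbx3, Tbx5 and Foxf2 were also higher, by 0.36 to 0.41 on the log2 scale, whereas Tbx2, Tbx4 and Prrx1 were at -0.11, -0.11 and -0.03. In all, 6 factors were higher and 4 lower (7 and 3 with library totals in place of TMM factors, where Prrx1 turns), with a median log2 fold change of 0.28, against 0.015 over the 15298 genes tested. By edgeR's quasi-likelihood F test, with p adjusted across the tested genes after Benjamini and Hochberg, none of the 10 passed an adjusted p of 0.05, and 0% of all genes passed in either direction. With unadjusted p under 0.05, 4 factors were higher, beside 5.65% of all tested genes that were higher with such a p, and 1 was lower, beside 6.75% of all genes. The groups did not overlap for 9 of the 10 factors: 6 had each Igf1r-deleted library above both controls, as did 16.0% of all genes, and 3 had each below, as did 14.9% of all genes. With library totals in place of TMM factors, tried after the data were seen, 6 were still above but only Tcf21 was below without overlap, beside 22.4% and 10.8% of all genes. DESeq2's Wald test, run as an alternative, put 1 factor, Tcf21, past an adjusted p of 0.05 on the lower side, where it put 0.935% of all genes.

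**Figure D1:**
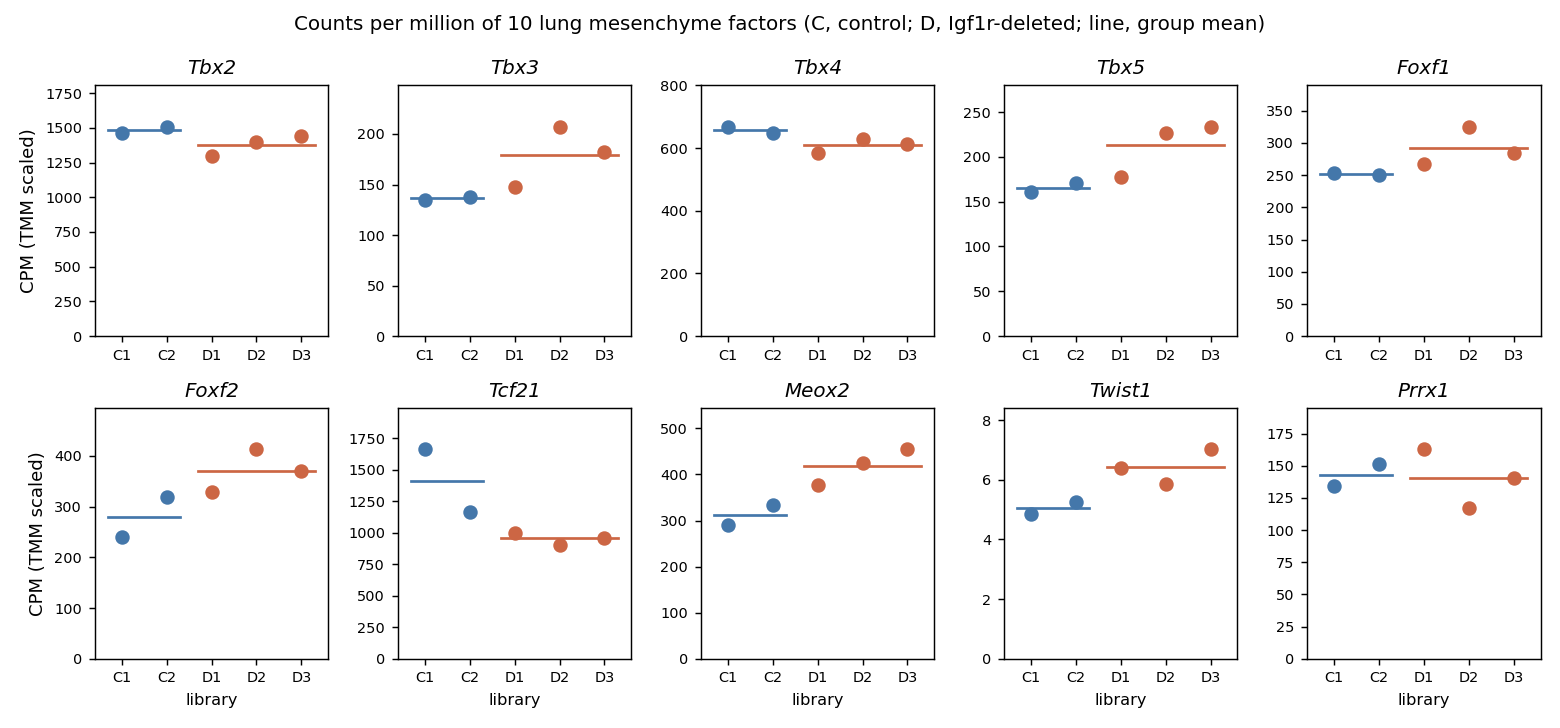
Level in CPM, counts scaled to a common library size with TMM factors (linear axes from 0), of the 10 factors in each library, with 1 point per library and a line at the mean of each genotype. Control libraries are C1 and C2 and Igf1r-deleted libraries D1, D2 and D3; on this scale the groups are apart in every panel except that of Prrx1 (by library totals Tbx2 and Tbx4 overlap too), and the widest step in CPM within a group is that of Tcf21 in the controls, from 1662 to 1168.

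Library totals were 35116766 to 37597857 counts. The factors had between 168 counts, for Twist1 in control replicate 1, and 57719 counts, for Tcf21 in the same library, so that counting noise was small for all but Twist1. Libraries of a genotype differed by 23.2 to 50.7 times counting noise (the chi-square of their counts divided by its degrees of freedom), and the spread between libraries therefore set the precision. With 2 libraries against 3 there are 10 ways to choose the controls, and no permutation test of a single gene can go below p of 0.1. Igf1r itself was at 324 and 324 CPM in the controls against 140, 177 and 194 CPM with Igf1r deleted, below both controls in each, with a log2 fold change of -0.93 (SE 0.14). Its Benjamini-Hochberg adjusted p was 0.354 from edgeR and 1.11e-05 from DESeq2. The edgeR test thus did not call the deleted gene itself, and a factor that fails its adjusted p is not thereby shown to be unchanged. In the unadjusted test 1897 genes had p under 0.05, and DESeq2 called 199 genes, 143 lower and 56 higher. Levels below are in CPM scaled with TMM factors, in the order of the replicate numbers.

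Tcf21, the bHLH factor of lung and kidney mesenchyme and a marker of lipofibroblasts, lies at chr10:22817281-22820174 on the minus strand of mm10 (GENCODE M21) and had the highest level of the 10 per kilobase of exon. It was at 1662 and 1168 CPM in the controls against 1003, 902 and 963 CPM with Igf1r deleted. The 3 Igf1r-deleted libraries lay close together and below both controls, and control replicate 1 stood well above control replicate 2. The group means were 1415 ± 349 (SD, n = 2) and 956 ± 50.6 CPM (SD, n = 3). The log2 fold change was -0.57 (SE 0.16, 95% interval -0.95 to -0.18), with an unadjusted p of 0.0101 and a Benjamini-Hochberg adjusted p of 0.354 from edgeR. In DESeq2 the log2 fold change was -0.58 with an adjusted p of 0.0492, while over the 10 alternatives the adjusted p ran from 0.0492 to 0.405. Control replicate 1 carried much of the size: without it the log2 fold change was -0.29, with an unadjusted p of 0.0699, and without control replicate 2 it was -0.81. The direction was the same in every setting that was run.

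Because these are bulk libraries, fewer cells of a type and less RNA per cell cannot be told apart, for Tcf21 or for any other factor. Control replicate 1 also had the highest summed levels of hematopoietic, adventitial fibroblast and myofibroblast markers. The adventitial sum was highest there through Gsn (5134 and 3064 CPM in control replicates 1 and 2), while Dcn, Dpt and Col14a1 were lower in control replicate 1 than in control replicate 2. The myofibroblast sum was highest there through Eln (17351 and 11104 CPM), while Acta2 and Tagln were at their lowest of all libraries in control replicate 1. The summed level of 8 hematopoietic markers was 574 and 419 CPM in the controls against 470, 329 and 204 CPM with Igf1r deleted. All 8 were lower in the Igf1r-deleted group. In edgeR's test 3 of them were lower with an unadjusted p under 0.05, beside 6.75% of all tested genes. Of these 3, Laptm5 overlapped between the groups (57.7 CPM in control replicate 2, 59.5 CPM in Igf1r-deleted replicate 1). The sum of 8 adventitial fibroblast markers was 7685 and 6168 CPM against 6179, 4051 and 4570 CPM, with 7 of 8 lower. The 9 lipofibroblast markers summed to 9385 and 9691 CPM against 9046, 8220 and 8941 CPM, with 6 of 9 lower and 3 higher. The sum, most of it from Npnt and Limch1, was lower in each Igf1r-deleted library by a small margin. Of the single markers, Slc7a10 was higher (0.51 on the log2 scale, unadjusted p of 0.0156 from edgeR). Inmt was lower (-0.91, unadjusted p of 0.0465 from edgeR and 0.103 from DESeq2), but its groups overlapped. It was at 776 and 303 CPM in the controls against 234, 244 and 383 CPM with Igf1r deleted. Plin2 was at -0.41. The part of these markers in the Tcf21 difference was not tested.

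Meox2 encodes a homeobox factor of somites, limb muscle and vessel walls, and lies at chr12:37108540-37179534 on the plus strand. It was at 290 and 334 CPM in the controls against 377, 424 and 454 CPM with Igf1r deleted. Every Igf1r-deleted library exceeded both controls, and the gap between the groups was smaller than the range within the Igf1r-deleted group. The means were 312 ± 31.2 (SD, n = 2) and 419 ± 38.8 CPM (SD, n = 3). On the log2 scale Meox2 differed by 0.42 (SE 0.13, 95% interval 0.13 to 0.72), with an unadjusted p of 0.0111 and a Benjamini-Hochberg adjusted p of 0.354 from edgeR. DESeq2 gave an adjusted p of 0.0828. Leaving out libraries in turn moved the log2 fold change between 0.32, without control replicate 1, and 0.52, without control replicate 2, and the unadjusted p stayed under 0.05 in 4 of these 5 fits, the exception being the fit without control replicate 1 (p of 0.0793).

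Prrx1, the paired-related homeobox gene of limb, craniofacial and fibroblast progenitors, was the single factor whose groups overlapped with TMM factors. It was at 134 and 152 CPM in the controls against 163, 117 and 141 CPM with Igf1r deleted, and both the highest and the lowest library were Igf1r-deleted. The gene spans chr1:163245119-163313710 on the minus strand. Its log2 fold change was -0.03 (SE 0.15, 95% interval -0.38 to 0.32), with a Benjamini-Hochberg adjusted p of 0.948 from edgeR. Its sign turned with the scaling and with the libraries left out, so no direction is given for it.

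Twist1, a bHLH factor of head mesoderm and of mesenchymal transition, was the least abundant of the set and lies on the plus strand at chr12:33957671-33959829. It was at 4.84 and 5.24 CPM in the controls against 6.38, 5.86 and 7.01 CPM with Igf1r deleted, from 168 to 252 counts. The Igf1r-deleted libraries were above both controls, replicate 2 by the least. On the log2 scale the difference was 0.35 (SE 0.19, 95% interval -0.09 to 0.79), close to that of Tbx5 but with a wider interval that spans 0, and the Benjamini-Hochberg adjusted p from edgeR was 0.472.

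The 4 T-box genes form a pair of gene clusters in the genome. Tbx2 and Tbx4 lie on the plus strand of chromosome 11, at chr11:85832551-85841948 and chr11:85886422-85916097 of mm10 (GENCODE M21), 44.5 kb apart. Tbx3 and Tbx5 lie on the plus strand of chromosome 5, at chr5:119670669-119684724 and chr5:119832668-119885219, 148 kb apart. The difference between genotypes had the same sign within each cluster and opposite signs in the 2 clusters, although Tbx2 and Tbx4 were close to 0 and none of the 4 passed the adjusted p.

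Tbx2, a repressor of cell cycle inhibitors, was at 1460 and 1508 CPM in the controls against 1299, 1400 and 1438 CPM with Igf1r deleted. Tbx4, its neighbour and a driver of lung and hindlimb outgrowth, was at 668 and 648 CPM against 585, 629 and 612 CPM. For both genes the Igf1r-deleted libraries were below the controls, without overlap but by little. Scaled by library totals, however, Igf1r-deleted replicate 2 was above both controls for both genes, and the log2 fold changes were -0.03 and -0.04. The log2 fold change was -0.11 for Tbx2 (SE 0.12, 95% interval -0.38 to 0.17) and -0.11 for Tbx4 (SE 0.10, 95% interval -0.35 to 0.13), with Benjamini-Hochberg adjusted p of 0.720 and 0.663 from edgeR. Both genes varied little within a genotype: the spread of log2 CPM within groups was at the percentile 8.22 of all tested genes for Tbx2 and 3.70 for Tbx4.

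Tbx3, which with Tbx2 holds embryonic lung mesenchyme in a dividing state, was at 134 and 138 CPM in the controls against 147, 207 and 182 CPM with Igf1r deleted. Tbx5, the partner of Tbx4 in lung budding, was at 160 and 171 CPM against 178, 227 and 234 CPM. In both cases replicate 1 of the Igf1r-deleted group lay just above the controls and the other two stood clear of them. The log2 fold change was 0.39 for Tbx3 (SE 0.15, 95% interval 0.04 to 0.74) and 0.36 for Tbx5 (SE 0.14, 95% interval 0.04 to 0.68). The unadjusted p was 0.0323 and 0.0327, and the Benjamini-Hochberg adjusted p from edgeR was 0.376 and 0.377. Of the 5 fits that leave out a library, 1 kept an unadjusted p under 0.05 for each gene, the fit without Igf1r-deleted replicate 1, with log2 fold changes of 0.51 and 0.47. Without Igf1r-deleted replicate 2 the value for Tbx3 was 0.27, and without replicate 3 the value for Tbx5 was 0.29. An antisense gene, Tbx3os1, overlaps 1.74% of the exon bases of Tbx3, and whether counting used the strand is not given in the sources used here.

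Ratios of counts within a library do not depend on how libraries are scaled, and they set the clusters side by side. The ratios were chosen after the values of the genes had been seen, and they are given without a test. Tbx2 had 10.9 and 10.9 reads per read of Tbx3 in the controls and 8.83, 6.76 and 7.88 in the Igf1r-deleted libraries. For Tbx4 against Tbx5 the ratio was 4.17 and 3.80 in the controls and 3.29, 2.78 and 2.62 in the Igf1r-deleted libraries, so that both ratios between the clusters were lower in each Igf1r-deleted library. Within the clusters the groups overlapped: Tbx2 against Tbx4 was at 2.19 and 2.33 in the controls and at 2.22, 2.22 and 2.35 in the Igf1r-deleted libraries. Tbx3 against Tbx5 was at 0.838 and 0.808 in the controls and at 0.827, 0.914 and 0.781 in the Igf1r-deleted libraries. Tcf21 against Meox2 was at 5.73 and 3.49 in the controls and at 2.66, 2.13 and 2.12 in the Igf1r-deleted libraries, again lower in each.

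**Figure D2:**
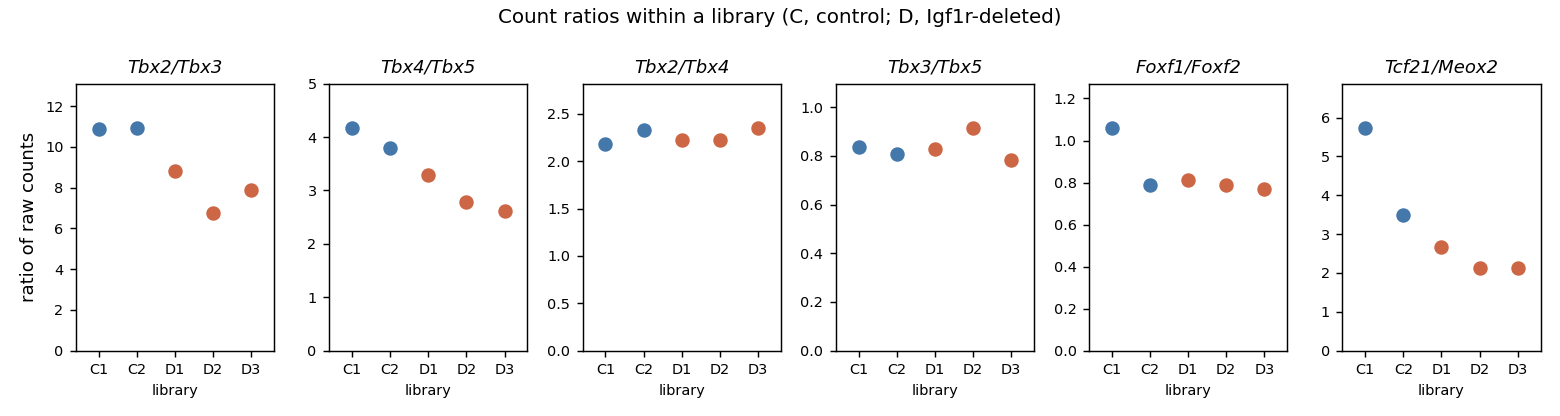
Ratio of raw counts of pairs of factors in each library (linear axes from 0; C, control; D, Igf1r-deleted; 1 point per library). Tbx2 over Tbx3, Tbx4 over Tbx5 and Tcf21 over Meox2 are lower in each Igf1r-deleted library than in both controls, while Tbx2 over Tbx4, Tbx3 over Tbx5 and Foxf1 over Foxf2 overlap between the genotypes.

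Foxf1 and Foxf2 are paralogs of the forkhead family that respond to hedgehog signals, and loss of FOXF1 in people causes alveolar capillary dysplasia. Foxf2, at chr13:31625816-31631403 on the plus strand, was at 240 and 319 CPM in the controls against 330, 413 and 371 CPM with Igf1r deleted. The Igf1r-deleted libraries were all higher, but control replicate 2 was nearer to the lowest of them than to control replicate 1. The log2 fold change was 0.41 (SE 0.16, 95% interval 0.04 to 0.78), with an unadjusted p of 0.0337 and a Benjamini-Hochberg adjusted p of 0.379 from edgeR. Without control replicate 1 it was 0.22, and it was 0.62 with control replicate 2 left out instead, and 2 of the 5 fits that leave out a library kept an unadjusted p under 0.05.

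Foxf1, at chr8:121084386-121088144 on the plus strand, was at 254 and 251 CPM in the controls against 267, 325 and 285 CPM with Igf1r deleted. It too was higher in each Igf1r-deleted library, with replicate 1 closest to the controls. Its log2 fold change was 0.21 (SE 0.11, 95% interval -0.06 to 0.48), with a Benjamini-Hochberg adjusted p of 0.471 from edgeR, and it was 0.12 without Igf1r-deleted replicate 2. Foxf1 shared 2.89% of its 31-base sequences with other genes and Foxf2 3.57%, each with the other among them, and a microRNA gene on the opposite strand overlaps 4.06% of the exon bases of Foxf1 and 4.15% of those of Foxf2. Fendrr, the long non-coding RNA that starts 1.28 kb from Foxf1 on the opposite strand, was at 9.36 and 9.63 CPM in the controls against 10.003, 18.0 and 19.6 CPM with Igf1r deleted. Replicate 1 of the Igf1r-deleted group was again next to the controls, and the log2 fold change of Fendrr was 0.74 (SE 0.28, unadjusted p of 0.0318).

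**Figure D3:**
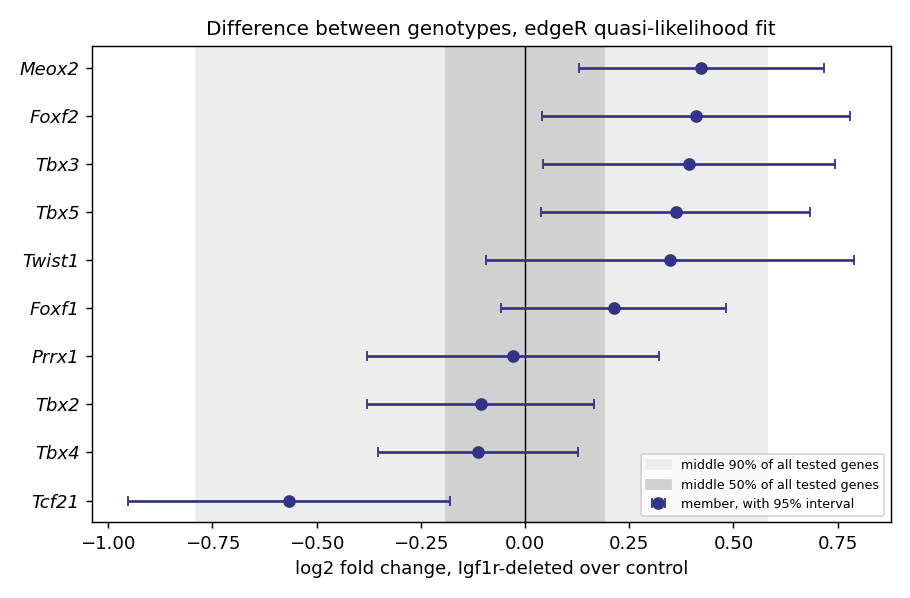
Log2 fold change of each factor, Igf1r-deleted over control, from edgeR's quasi-likelihood fit (points) with its 95% interval (bars). The dark and light bands hold the middle 50% and 90% of all tested genes; the intervals of Meox2, Foxf2, Tbx3 and Tbx5 lie above 0, that of Tcf21 lies below 0, and the other 5 span 0.

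The bases upstream of the start sites are shown for the factors with an unadjusted p under 0.05 that have an entry among the RefSeq promoters, which are Tcf21, Meox2 and Foxf2 of those 5. Entries were found for 6 of the 10 factors. The bHLH factors Tcf21 and Twist1 bind E-boxes as dimers with E proteins, so matches to the E-box CANNTG are printed in capitals. The sequences run 5′ to 3′ to the base before the start on GRCm38.p6, at chr10:22820175-22820393 on the minus strand for Tcf21, chr12:37108290-37108539 on the plus strand for Meox2 and chr13:31625566-31625815 on the plus strand for Foxf2. For Tcf21, the 31 bases next to the RefSeq start are left out, since GENCODE M21 places them in the first exon.
Tcf21: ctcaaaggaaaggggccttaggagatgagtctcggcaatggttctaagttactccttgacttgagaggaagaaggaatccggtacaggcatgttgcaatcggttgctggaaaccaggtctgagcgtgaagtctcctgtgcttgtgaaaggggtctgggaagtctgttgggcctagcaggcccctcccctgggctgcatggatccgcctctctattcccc
Meox2: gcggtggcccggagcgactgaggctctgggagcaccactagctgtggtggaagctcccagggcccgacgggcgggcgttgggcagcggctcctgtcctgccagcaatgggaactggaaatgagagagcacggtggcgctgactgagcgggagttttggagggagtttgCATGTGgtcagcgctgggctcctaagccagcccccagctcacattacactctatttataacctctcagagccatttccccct
Foxf2: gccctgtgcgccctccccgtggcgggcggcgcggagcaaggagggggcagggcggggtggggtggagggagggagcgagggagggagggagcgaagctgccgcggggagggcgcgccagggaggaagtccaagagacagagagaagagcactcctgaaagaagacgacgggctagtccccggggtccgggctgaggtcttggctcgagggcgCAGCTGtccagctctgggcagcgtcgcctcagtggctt
The 250 bases before the start of Tcf21 held no E-box, those of Meox2 held 1 (CATGTG, from 82 bases before the start) and those of Foxf2 held 1 (CAGCTG, from 38 bases before the start). Over all 32851 promoters of the table, 66.2% held an E-box in the same window. On either strand, the T-box half-site AGGTGTGA was in 1.12% of all promoters, the forkhead motif GTAAACA in 3.17% and the GLI motif GACCACCCA in 0.225%, and the windows of the 6 factors with an entry held none of these 3. The homeobox core TAATTA, in 4.84% of all promoters, was in that of Prrx1. GC content was 52.4% for Tcf21, 62.0% for Meox2 and 71.6% for Foxf2, with a median of 52.4% over all promoters.

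Levels were compared between the factors per kilobase of exon. Tcf21 was highest with a mean of 485 CPM per kb over the 5 libraries (384 to 708), followed by Tbx2 with 392 (358 to 416). Their ranges overlapped, and Tcf21 was above Tbx2 in 4 of 5 libraries. Tbx4, Meox2, Foxf2 and Foxf1 formed a middle group with means of 185, 159, 142 and 114 CPM per kb, in which the ranges of neighbours overlapped. Below them came Tbx5 (41.5), Tbx3 (24.4), Prrx1 (12.8) and Twist1 (3.60), and here the ranges of neighbours did not overlap. The order was the same when the longest transcript was used as the length. As a share of the summed level per kb of the 10 factors, Tcf21 made up 41.5% and 31.9% in the controls and 29.5%, 25.0% and 26.5% in the Igf1r-deleted libraries, whereas Meox2 made up 7.21% and 9.09% against 11.1%, 11.7% and 12.4%. Among all tested genes, the mean CPM ran from the percentile 31.6 for Twist1 to 99.6 for Tbx2.

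**Figure D4:**
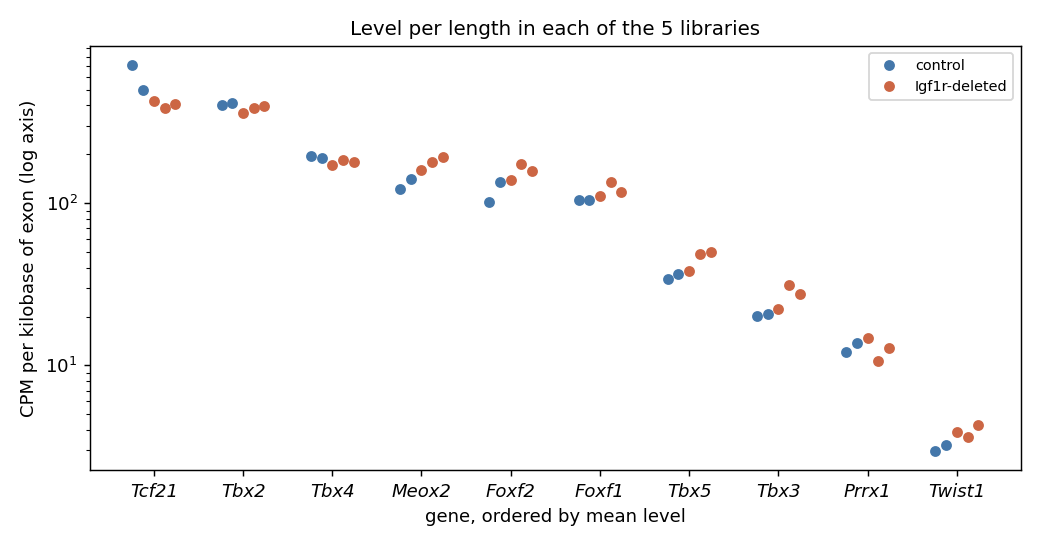
Level of the 10 factors in CPM per kilobase of exon (log axis), ordered by mean, with 1 point per library. Tcf21 and Tbx2 are at the top (means 485 and 392), Tbx4 to Foxf1 between 114 and 185, and Twist1 at the bottom (3.60).

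Of all tested genes with a mean of at least 10 CPM, the 3 are named for each of Tcf21 and Meox2 whose log2 CPM over the 5 libraries, centred on the mean, lay closest to that of the factor by Euclidean distance. For Tcf21 these were Amigo2 (distance 0.0779), 4933426M11Rik (0.0937) and Acot1 (0.0992). For Meox2 they were B4galt4 (0.0651), Carm1 (0.0707) and Fzd7 (0.0766). Among the factors themselves, the nearest pair was Tbx2 and Tbx4 (0.0906), followed by Tbx3 and Tbx5 (0.169). Tbx5 and Meox2, on different chromosomes, were almost as near (0.171). Tbx2 and Tbx4 changed little over the libraries, and the distance between such genes is small whatever their relation. Genes outside the set lay nearer to Tbx2 (0.0267) and to Tbx4 (0.0303) than these lay to each other. These distances are descriptions over 5 libraries.

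Relatives of the factors, the hedgehog pathway and genes with a known link to the factors were followed in 7 lists, which hold 91 symbols, of which 89 were in the table and 78 were tested. Of these 78, 49 were higher and 29 lower, where 52.3% of all tested genes were higher. With an unadjusted p under 0.05, 14 were higher and 5 lower, beside 5.65% and 6.75% of all tested genes. These shares stand beside the counts of each list below. In edgeR's quasi-likelihood test 0 passed the adjusted p, beside 0% of all genes. DESeq2 called 1 of the 78, Meox1, beside 199 of all 15298 tested genes. The median log2 fold change of the 78 was 0.094, against 0.015 over all tested genes. Meox1, the paralog of Meox2, was at 6.11 and 9.55 CPM in the controls against 14.1, 16.2 and 17.9 CPM with Igf1r deleted. The groups were well apart, and its log2 fold change was 1.04 (SE 0.22, Benjamini-Hochberg adjusted p of 0.354 from edgeR and of 0.00682 from DESeq2). Both Meox genes were thus higher, Meox1 by more and from a far lower level.

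Among 11 tested homeobox relatives 5 were higher and 6 lower, and Alx4, which was under 2 CPM in each library, was the other with an unadjusted p under 0.05. The abundant Hlx was at 0.30 on the log2 scale. Of 10 forkhead relatives 8 were higher and 2 lower, with a median of 0.26. Foxp4 (0.47, unadjusted p of 0.00612) and Foxl1, a hedgehog target of gut and lung mesenchyme (0.59, unadjusted p of 0.0186), were higher, the scarce Foxd1 (-0.86, unadjusted p of 0.0162) was lower, and the abundant Foxp1 was at 0.09. Of 13 other T-box genes only 7 were expressed enough to be tested, 2 higher and 5 lower, with no unadjusted p under 0.05, and Mga and Tbx20, the most abundant of them, were at 0.01 and -0.15. Of 10 bHLH relatives and E protein partners 6 were higher, among them Scx, the tendon factor (0.59, unadjusted p of 0.0171), and Tcf3 (0.27, unadjusted p of 0.0431), while Msc was lower (-1.07, unadjusted p of 0.0272). The abundant E protein genes Tcf4 and Tcf12 were at 0.17 and -0.02.

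Other mesenchymal factors were mostly higher, 16 of 22 tested, with a median of 0.14. Myocd, the co-activator of smooth muscle genes, was at 8.61 and 10.3 CPM in the controls against 12.2, 18.7 and 14.6 CPM with Igf1r deleted (log2 fold change 0.68, unadjusted p of 0.0132). Zeb2 (0.35), Runx1 (0.36) and Mkl1 (0.26) also had an unadjusted p under 0.05 on the higher side, and Osr2 (-0.48) on the lower side, whereas the abundant Nfib was at 0.08. The myofibroblast markers Acta2, Tagln and Actg2, genes of smooth muscle actin and its partners, were higher in the same libraries, with log2 fold changes of 0.78, 0.59 and 0.50. Of the 12 myofibroblast markers 8 were higher, 5 with an unadjusted p under 0.05, beside 5.65% of all tested genes. The other 4 were lower: Hhip (-0.47), Eln (-0.41), Aspn (-0.23) and Pdgfra (-0.18), 1 of them with such a p, beside 6.75% of all tested genes. The summed level of the 12 was 21903 and 15943 CPM in the controls against 17324, 14746 and 15809 CPM with Igf1r deleted, set mostly by elastin, so that the sum did not follow the count of higher genes. The part of a shift in fibroblast classes in the values of the 10 factors was not tested.

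In the hedgehog pathway, the upstream signal of Foxf1 and Foxf2, 5 of 7 genes were higher and 2 lower, with a median of 0.07, leaving out Gli1, which drives the Cre in these mice; with Gli1 they were 6 of 8 and 0.19. Gli2 was at 53.2 and 75.0 CPM in the controls against 76.6, 98.1 and 101 CPM with Igf1r deleted, with a log2 fold change of 0.52 (unadjusted p of 0.0235). Gli3 was at 0.44 (unadjusted p of 0.0197) and the hedgehog-binding antagonist Hhip at -0.47 (unadjusted p of 0.0495), while Ptch1, the receptor and a target of the pathway, was at 0.07.

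Of 10 tested genes linked to the factors, 6 were higher and 4 lower, with a median of 0.14. Cdkn1a, a cell cycle inhibitor that Tbx2 and Tbx3 repress in lung mesenchyme, was at 130 and 84.4 CPM in the controls against 78.7, 61.3 and 66.0 CPM with Igf1r deleted. It had the same shape as Tcf21, with control replicate 1 well above the rest, and its log2 fold change was -0.64 (SE 0.19, unadjusted p of 0.0115). The non-canonical Wnt ligands Wnt5a and Wnt11 were at 0.51 and 1.03, with unadjusted p of 0.0259 and 0.0289 from edgeR. The groups overlapped for Wnt11, at 39.7 and 76.4 CPM in the controls against 69.6, 153 and 133 CPM with Igf1r deleted. The matrix gene Tnc was at 0.22.

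**Figure D5:**
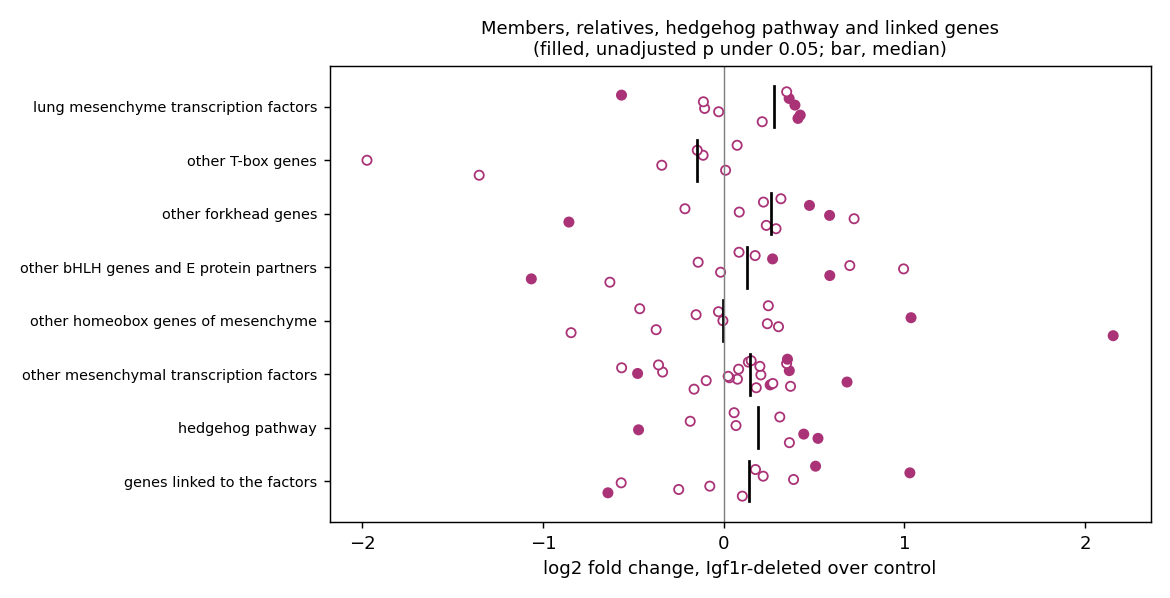
Log2 fold change, Igf1r-deleted over control, of the 10 factors and of the tested genes of 7 lists (filled points, unadjusted p under 0.05; bar, median of the list). The medians run from -0.15 for the other T-box genes to 0.28 for the factors, and in every list but the other T-box genes some genes had an unadjusted p under 0.05.

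The labels call the cells fibroblasts, and the fibroblast gene Pdgfra was at 684 and 516 CPM in the controls against 480, 547 and 560 CPM with Igf1r deleted. Epcam of epithelium was at 1.92 to 5.10 CPM and Pecam1 of endothelium at 40.2 to 120 CPM. The epithelial marker Sftpc, however, was at 233 to 552 CPM, a level that overlaps that of Pdgfra. Markers of epithelial, endothelial, mesothelial and hematopoietic cells were detected in each library, and none of the markers listed was at 0 in any. The sums over 10 epithelial markers were 1101 and 1026 CPM in the controls against 739, 1103 and 496 CPM with Igf1r deleted, with 1 marker higher and 9 lower. Over 10 endothelial markers the sums were 626 and 606 CPM against 565, 846 and 306 CPM, with 3 markers higher and 7 lower. In Igf1r-deleted replicate 3 both sums were lowest, and in that library Tbx5, Meox2 and Twist1 had their highest levels. The 10 pericyte markers summed to 588 to 684 CPM, 5 higher and 5 lower, and the 6 mesothelial markers to 338 to 455 CPM, 1 higher and 5 lower. Igf1r-deleted replicate 2 had the most endothelial RNA of all and the highest Tbx3, Foxf1 and Foxf2. The part of these markers in the differences of the factors was not tested. Xist, the RNA of the inactive X chromosome, was at 7.41 and 8.77 log2 CPM in Igf1r-deleted replicates 1 and 3 and at 2.05, -0.55 and -1.49 log2 CPM in control replicates 1 and 2 and Igf1r-deleted replicate 2. With Xist as a covariate, 6 factors were higher and 4 lower. No control had high Xist, and Igf1r-deleted replicate 2 was the only Igf1r-deleted library with Xist as low as in the controls. The part of sex in the differences of the factors was not tested. Genes next to the factors gave mixed values: 2610027K06Rik, 0.328 kb from Tbx2, was at -0.01, Agmo beside Meox2 was at -0.46 (unadjusted p of 0.133), and Tbpl1 beside Tcf21 was at 0.05 on the log2 scale. Gorab, 71.2 kb from Prrx1, was at 0.37 (unadjusted p of 0.0249) and Brip1, 142 kb from Tbx4, at 0.58 (unadjusted p of 0.0392).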

How the data were processed

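Total RNA of GFP-sorted cells was made into NEBNext Ultra libraries and sequenced as 150-bp paired reads. Trimming with Trim Galore, alignment with Bowtie2 to mm10 and counting with GenomicAlignments were done by the authors, who deposited raw counts per gene symbol, not normalized. DESeq and Cufflinks are also named in the submitters' processing notes, and the versions, the annotation and the use of strand are not given in the sources used here. The table held 23478 genes, 4833 of them at 0 in every library, and 0 columns of other series.

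Counts were scaled with TMM factors (0.961 to 1.06), filtered with filterByExpr and tested with edgeR 4.0.16 (R 4.3.3) by the two-sided quasi-likelihood F test, on a model with genotype alone, and p was adjusted over 15298 genes (Benjamini-Hochberg). The fit was run on simulated counts with known changes and the same spread for all genes. Because the spread of these data differs between genes, that run does not show how well the fit calls changes here. Alternatives were DESeq2 1.42.0, limma voom (limma 3.58.1), robust empirical Bayes, 3 other scalings, 2 other filters, a replicate block, Xist as a covariate, and leaving out each library. DESeq2's independent filtering gave no adjusted p for 2970 genes. Groups came from the sample labels.

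The factors and gene lists were chosen with earlier results of these data known. All 10 factors and Igf1r are named; a list gene is named if its unadjusted p is under 0.05 or if it is among the 2 with the highest CPM of its list, and neighbours are the nearest genes of the table. The values of 1 such gene are not reported here. For the cell type markers, examples were chosen after their values were seen. Exon lengths, positions and overlaps came from GENCODE M21 and promoters from RefSeq (GRCm38.p6).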

Additional observations from a re-analysis of the deposited data

How the results depend on the processing

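Of 150 log2 fold changes of the 10 factors under 15 other settings, 146 kept their direction and their side of an adjusted p of 0.05. The 3 that turned were all of Prrx1, at 0.038 with library totals in place of TMM and from -0.16 to 0.081 when a library was left out, and Tcf21 passed the adjusted p with DESeq2. DESeq2 called 199 genes and 1 factor, and the replicate block 136 genes and no factor, against 0 genes in the edgeR fit without it. Leaving out each library gave 0 to 45 genes, with 0 without control replicate 1 or Igf1r-deleted replicate 3 and 45 without control replicate 2. The factors with an unadjusted p under 0.05 were 0 to 6 in those fits, against 5 with all libraries: 0 without control replicate 1 (2.76% of all genes), 3 without control replicate 2 (14.8%), and 6, 2 and 2 without Igf1r-deleted replicates 1, 2 and 3 (21.0%, 6.58% and 7.35%), beside 12.4% of all genes with all libraries. Genes of the other 7 lists with such a p were 2 to 31, against 19. Library totals put 64.4% of all genes with an unadjusted p under 0.05 on the higher side, against 45.6% with TMM, and 7 factors higher and 3 lower. With those totals 1 factor, not 3, was lower without overlap. In the main fit with TMM factors, the hedgehog median was 0.068 without Gli1, not 0.19. Both alternatives were tried after the data were seen. Control and Igf1r-deleted libraries share only numbers 1 and 2, and nothing ties these to a litter or day. Deviations from the group means correlated at 0.21 for number 1 and 0.12 for number 2. Control replicate 2 correlated as much, at 0.12, with Igf1r-deleted replicate 3, which has another number. With 2 controls the deviations are mirror images, so these values cannot show a pairing by number. With the replicate block 4 factors had an unadjusted p under 0.05 in edgeR, beside 13.4% of all genes, the factor lost being Tbx5 (p of 0.0586). Where a group keeps 1 library, that library is taken to vary like the other group. The causes of these differences were not tested.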
